A study of Homo sapiens with 8 samples.

Results

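The 10 transporters described here move drugs, conjugates and bile acids across the hepatocyte membrane: the ATP-driven exporters ABCC1, ABCC2, ABCC3, ABCC4, ABCC6, ABCB1 and ABCG2, and the uptake carriers SLCO1B1, SLCO1B3 and SLC10A1. They were taken by gene symbol from a table of 26716 genes, as a set of transporters chosen with earlier results of these data known. The table covers polyadenylated RNA of HepG2, a human liver cancer line that keeps many hepatocyte functions, in 8 libraries. All cells received a miRNA mimic at 1 nM together with an siRNA at 30 nM and were lysed 72 h later. The siIPO8-miR-552-3p group received the miR-552-3p mimic with importin8 siRNA, and the miR-552-3p group the same mimic with the control siRNA. The siIPO8-NC group received the control mimic with importin8 siRNA, and the NC group the control mimic with the control siRNA. Each group holds 2 libraries. Whether both were grown as cultures of their own is not stated in the labels, and the p-values then cover only library-to-library spread, possibly technical.

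In hepatocytes, ABCB1, ABCC2 and ABCG2 sit on the canalicular membrane and pump drugs and conjugates into bile. ABCC3 and ABCC4 sit on the sinusoidal membrane and return conjugates and bile acids to blood, and their rise is a known response to cholestasis. SLCO1B1 and SLCO1B3 (the carriers OATP1B1 and OATP1B3) take up statins and bilirubin from blood, and SLC10A1 (NTCP) takes up conjugated bile acids and serves as the entry receptor of hepatitis B virus. Importin8, the product of IPO8, is a nuclear import receptor that also binds Argonaute proteins, the carriers of miRNAs.

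The mimic is named for miR-552-3p, whose mature sequence in RefSeq (GRCh38.p14, chr1:34669614-34669634, minus strand) is shown because its seed, bases 2 to 8 in capitals, sets which letters were searched for in the transporters.

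miR-552-3p: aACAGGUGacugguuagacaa

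The letters that pair with this seed, CACCTGT in the transcript's own sequence, were found in the 3′ UTR of 1 of the 10 transporters, ABCC3 (GENCODE v29 annotation, GRCh38). Its single match lies at chr17:50691308-50691334, plus strand, 118 bases into a UTR of 1052 bases, and is shown with 10 bases on either side and the pairing letters in capitals. An A follows the 7 letters, which makes it a match of the 8mer kind.

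ABCC3 3′ UTR match: taagattttgCACCTGTaaagtgcctt

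Of 2385 genes with a UTR of like length, 12.1% held such a match. The other 9 transporters held none in the annotated UTR, including ABCC2 with 963 bases and ABCG2 with 1965 bases. A single annotated transcript was searched for each gene, and the UTRs of its other transcripts were not.

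Libraries held 21608563 to 22102373 expected counts, and 17715 genes passed the filter on low counts. The siRNA's target IPO8 had 8.30 and 7.65 CPM (counts scaled to library size) in siIPO8-miR-552-3p and 24.6 and 25.4 CPM in miR-552-3p. The control mimic groups had 11.5 and 11.3 CPM in siIPO8-NC, against 33.3 and 34.7 CPM in NC. It was lower with importin8 siRNA in both mimic arms, at log2 fold changes of -1.65 (SE 0.089) with the mimic and -1.57 (SE 0.084) with the control mimic. It was also lower with the mimic, at -0.52 (SE 0.093) with importin8 siRNA and -0.44 (SE 0.080) with control siRNA. The groups were spread along the leading principal component (51.4% of variance), which scored siIPO8-miR-552-3p at 41.1 and 38.3, miR-552-3p at 75.3 and 72.4, siIPO8-NC at -19.3 and -24.7, and NC at -88.8 and -94.3. The most abundant gene took 6.901 to 8.916% of counts in the other 6 libraries, against 11.27 and 11.6% in NC. Hepatocyte markers were all detected, with albumin (ALB) at 20794 to 29573 CPM. Of 7 fibroblast markers, 3 were at 0 in siIPO8-miR-552-3p and siIPO8-NC and 2 in miR-552-3p and NC, while PDGFRB had 98.4 to 404 counts in every library. The cholangiocyte and endothelial or blood markers in the table were at 0 in no group except KRT7 in NC.

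Per kilobase of transcript, the exporters differed widely in level and the uptake carriers were close to 0. ABCC2, the exporter of bilirubin glucuronides, ranked first among the 10 with a mean of 127.65 FPKM over the 8 libraries (fragments scaled to transcript length and library size), ranging from 68.12 to 229.25. ABCC6, which mediates ATP release from hepatocytes, had 55.9 FPKM, a value that rests on a short length discussed with its counts further on. ABCB1 (P-glycoprotein) averaged 29.8 FPKM, ABCC1 22.4 FPKM and ABCC3 20.4 FPKM. ABCG2, the breast cancer resistance protein, averaged 7.32 FPKM, and ABCC4, an exporter of bile acids and cyclic nucleotides, 1.51 FPKM. SLC10A1, SLCO1B3 and SLCO1B1 averaged 0.056, 0.046 and 0.0050 FPKM.

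**Figure D1:**
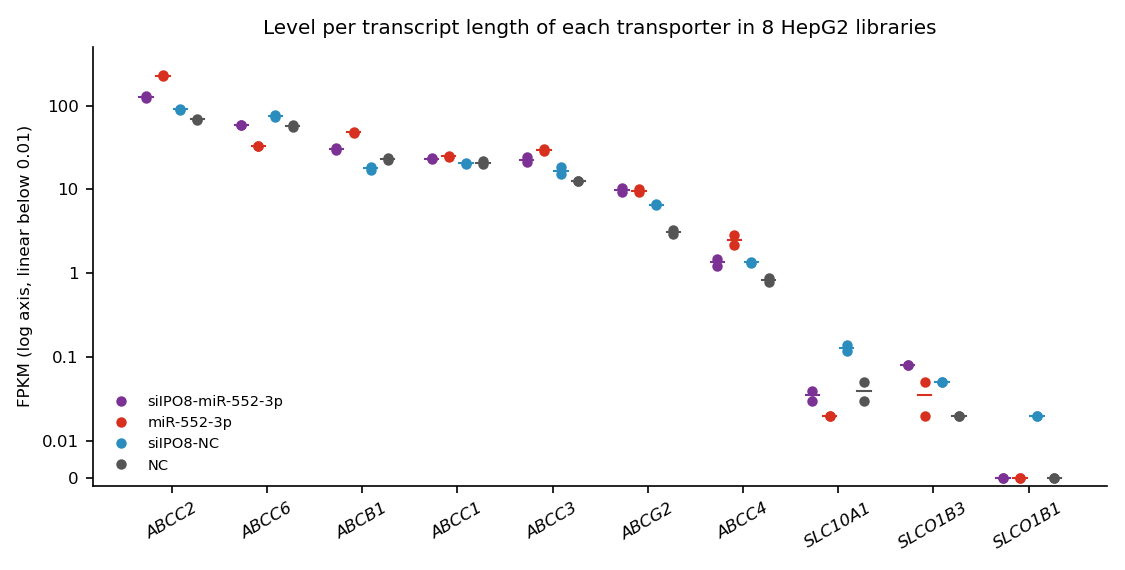
FPKM of the 10 transporters in each of the 8 libraries on a log axis (linear below 0.01), coloured by group. ABCC2 lies highest at 68.12 to 229.25 FPKM, while SLC10A1, SLCO1B3 and SLCO1B1 stay at or below 0.14 FPKM in every library.

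With the control siRNA, the miR-552-3p mimic was compared with the control mimic, to ask which transporters differ when the mimic alone is present. ABCC2, ABCC3, ABCC4, ABCB1, ABCG2 and ABCC1 rose and ABCC6 fell, so each of the 7 transporters that passed the filter was called at an adjusted p under 0.05. Over all 17715 genes tested 58.4% were called, 28.9% higher and 29.5% lower. The median log2 fold change of the 7 was 1.61, beside -0.0078 over all genes tested. In this and every other comparison, fewer cells with a transcript and less of it per cell cannot be told apart. Scaling by library totals without the gene with the most counts shifted the median of all genes by -0.12 in this comparison, and the 7 calls kept their directions.

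Among the canalicular exporters, ABCC2 had 1298 and 1349.6 CPM in miR-552-3p, against 427 and 419 CPM in NC. The lowest miR-552-3p library was thus far above the higher NC library, and ABCC2 rose 3.13-fold (log2 fold change 1.65, SE 0.070, adjusted p = 2.9e-08 by edgeR's quasi-likelihood test with Benjamini-Hochberg adjustment). ABCG2 had 28.9 and 31.1 CPM in miR-552-3p, against 10.1 and 9.03 CPM in NC. Its groups did not overlap, and it rose 3.14-fold (log2 1.65, SE 0.094, adjusted p = 2.2e-07 by the same test). ABCB1 had 213 and 216 CPM in miR-552-3p, against 105 and 94.6 CPM in NC. Both miR-552-3p libraries lay above both NC libraries, with a log2 fold change of 1.10 (SE 0.077, adjusted p = 9.8e-07 by edgeR).

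Among the exporters of the sinusoidal side, ABCC3 had 154 and 155 CPM in miR-552-3p, against 52.3 and 49.0 CPM in NC. The groups were apart, and ABCC3, the transporter with the seed match shown above, rose 3.05-fold (log2 1.61, SE 0.080, adjusted p = 8.7e-08 by edgeR). ABCC4 had 10.8 and 11.4 CPM in miR-552-3p, against 2.34 and 2.63 CPM in NC. These are 237 and 243 expected counts in miR-552-3p and 51.6 and 59.9 in NC, fewer than for any other tested transporter. It had the highest fold change of the 7, 4.48-fold (log2 2.16, SE 0.15, adjusted p = 1.1e-06 by edgeR).

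ABCC1, a broadly expressed exporter of glutathione conjugates and leukotriene C4, had 161 and 166 CPM in miR-552-3p, against 127 and 136 CPM in NC. The groups did not overlap, but its rise was small at log2 0.31 (SE 0.062, adjusted p = 0.0016 by edgeR). With totals that left out the gene with the most counts it was 0.19 (adjusted p = 0.028). ABCC6 had 36.2 and 35.7 CPM in miR-552-3p, against 70.0 and 78.9 CPM in NC. Both miR-552-3p libraries lay below both NC libraries, and ABCC6 fell by 1.05 on the log2 scale (SE 0.075, adjusted p = 1.1e-06 by edgeR).

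**Figure D2:**
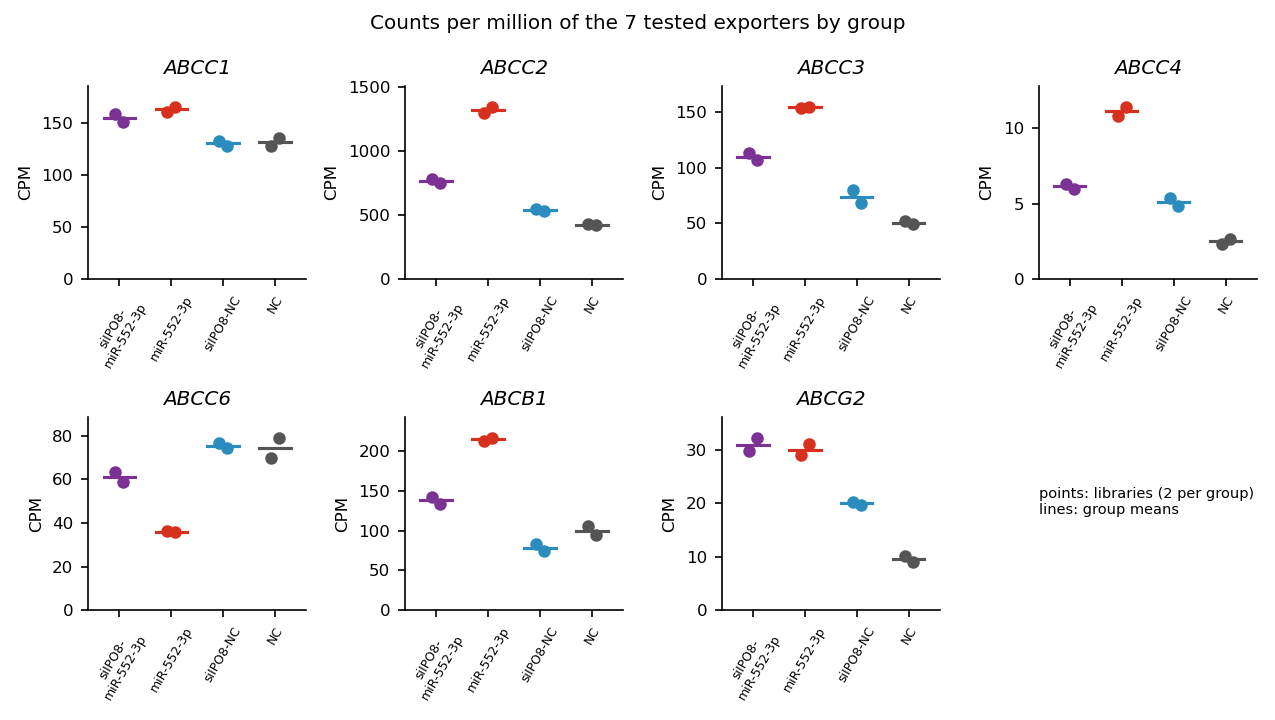
CPM of the 7 tested exporters by group, with a point for each library and a line at the mean of 2. ABCC2 averages 1324 CPM in miR-552-3p against 423 CPM in NC, and ABCC6 averages 36.0 CPM in miR-552-3p against 74.5 CPM in NC.

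With importin8 siRNA, the same mimic was set against the control mimic. ABCB1, ABCG2, ABCC3, ABCC2 and ABCC1 rose, ABCC6 fell, and ABCC4 was not called. These 6 calls of 7 stand beside 31.7% of all genes tested, 15.0% higher and 16.7% lower. Of the genes called, 47.2% were higher, or 34.0% with totals that left out the gene with the most counts. The median log2 fold change of the 7 was 0.51, beside -0.0045 over all genes.

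ABCB1 had 143 and 133 CPM in siIPO8-miR-552-3p, against 82.5 and 73.7 CPM in siIPO8-NC. It had the highest fold change in this arm, at log2 0.82 (SE 0.078, adjusted p = 5.4e-05 by edgeR). ABCG2 had 29.8 and 32.2 CPM in siIPO8-miR-552-3p, against 20.3 and 19.6 CPM in siIPO8-NC, and rose by log2 0.63 (SE 0.088, adjusted p = 0.00048 by edgeR). ABCC2 had 779 and 753 CPM in siIPO8-miR-552-3p, against 543 and 533 CPM in siIPO8-NC, and rose by log2 0.51 (SE 0.068, adjusted p = 0.00038 by edgeR). In each of these canalicular exporters the higher siIPO8-NC library lay below both siIPO8-miR-552-3p libraries.

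ABCC3 had 113 and 107 CPM in siIPO8-miR-552-3p, against 79.6 and 68.3 CPM in siIPO8-NC. Its groups were apart, with a log2 fold change of 0.57 (SE 0.078, adjusted p = 0.00043 by edgeR). ABCC4 had 6.30 and 5.98 CPM in siIPO8-miR-552-3p, against 5.38 and 4.86 CPM in siIPO8-NC. The libraries did not overlap, yet the log2 value of 0.26 (SE 0.15) did not pass the test, with an adjusted p of 0.21 by edgeR. On FPKM its value was -0.0012.

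ABCC1 had 158 and 151 CPM in siIPO8-miR-552-3p, against 133 and 128 CPM in siIPO8-NC. The groups were apart, with a log2 fold change of 0.25 (SE 0.062, adjusted p = 0.013 by edgeR). This call was lost without siIPO8-miR-552-3p replicate 1 (0.21, adjusted p = 0.11) or without siIPO8-NC replicate 2 (0.22, adjusted p = 0.11). It was also lost with totals that left out the gene with the most counts (0.15, adjusted p = 0.097) and on FPKM (0.18, adjusted p = 0.076 by limma). ABCC6 had 63.4 and 58.9 CPM in siIPO8-miR-552-3p, against 76.6 and 74.4 CPM in siIPO8-NC, and fell by 0.30 on the log2 scale (SE 0.073, adjusted p = 0.010 by edgeR). Without siIPO8-miR-552-3p replicate 2 it was -0.25 (adjusted p = 0.090), and without siIPO8-NC replicate 1 it was -0.28 (adjusted p = 0.065).

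The difference between the mimic's effects in the 2 siRNA arms was then tested directly, as the effect with importin8 siRNA minus the effect with control siRNA. It was negative for ABCC4, ABCC2, ABCC3 and ABCG2, each of which rose less in the importin8 siRNA arm or was not called there, and positive for ABCC6, which fell less. These 5 calls of 7 stand beside 31.3% of all genes tested, 14.2% higher and 17.1% lower, and the median difference was -1.02 over the 7 and -0.021 over all genes. Both effects of the mimic enter this test, so NC and siIPO8-NC each take part in it.

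For ABCC4 the mimic's log2 effect was 0.26 with importin8 siRNA and 2.16 with control siRNA, a difference of -1.90 (SE 0.21, adjusted p = 0.00012 by edgeR). For ABCC2 the effects were 0.51 with importin8 siRNA and 1.65 with control siRNA, a difference of -1.14 (SE 0.097, adjusted p = 2e-05). For ABCC3 they were 0.57 and 1.61, a difference of -1.04 (SE 0.11, adjusted p = 8.9e-05), and for ABCG2 0.63 and 1.65, a difference of -1.02 (SE 0.13, adjusted p = 0.00025), with importin8 siRNA given first in each. ABCC6 fell in both arms, at -0.30 with importin8 siRNA and -1.05 with control siRNA, a difference of 0.75 (SE 0.10, adjusted p = 0.00048). For ABCB1 the difference was -0.28 (SE 0.11), which was not called with an adjusted p of 0.078 by edgeR. It was called without NC replicate 1 (-0.36, adjusted p = 0.025) and with the replicate number as a block (-0.28, adjusted p = 0.037). For ABCC1 the difference was -0.06 (SE 0.088, adjusted p = 0.63).

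The importin8 siRNA itself was read in each mimic arm. With the mimic, ABCC4, ABCC2, ABCB1 and ABCC3 fell, ABCC6 rose, and ABCG2 and ABCC1 were not called. With the control mimic, ABCG2, ABCC4, ABCC3 and ABCC2 rose, ABCB1 fell, and ABCC1 and ABCC6 were not called. The 1 higher and 4 lower calls with the mimic stand beside 33.5% of all genes called, 17.3% higher and 16.2% lower. The 4 higher and 1 lower calls with the control mimic stand beside 47.0% of all genes called, 25.4% higher and 21.6% lower. With totals that left out the gene with the most counts, the share of calls that were higher was 46.0% with the mimic, against 51.7%, and 47.4% with the control mimic, against 54.0%. The median over the 7 was -0.49 with the mimic, beside -0.0099 over all genes, and 0.35 with the control mimic, beside -0.0025.

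With the mimic, siIPO8-miR-552-3p over miR-552-3p gave log2 fold changes of -0.86 (SE 0.14) for ABCC4, -0.79 (SE 0.068) for ABCC2 and -0.49 (SE 0.077) for ABCC3. ABCB1 was at -0.64 (SE 0.076) and ABCC6 at 0.77 (SE 0.076). These 5 had adjusted p-values from 1.9e-05 to 0.0012 by edgeR. ABCG2 averaged 31.0 ± 1.70 CPM in siIPO8-miR-552-3p and 30.0 ± 1.56 CPM in miR-552-3p (SD, n = 2 each), and these libraries overlapped.

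With the control mimic, siIPO8-NC over NC gave 1.06 (SE 0.095) for ABCG2, 1.04 (SE 0.16) for ABCC4, 0.55 (SE 0.081) for ABCC3 and 0.35 (SE 0.068) for ABCC2. ABCB1 had the opposite sign, at -0.35 (SE 0.079). The adjusted p-values of these 5 ran from 1.3e-05 to 0.0041 by edgeR. ABCC6 averaged 75.5 ± 1.55 CPM in siIPO8-NC and 74.5 ± 6.30 CPM in NC (SD, n = 2 each), with overlapping libraries, and its log2 value was 0.02 (SE 0.072). ABCB1 was therefore lower with importin8 siRNA in both mimic arms, whereas ABCC2, ABCC3 and ABCC4 were lower with the mimic and higher with the control mimic. The comparisons in the 2 mimic arms share no library.

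**Figure D3:**
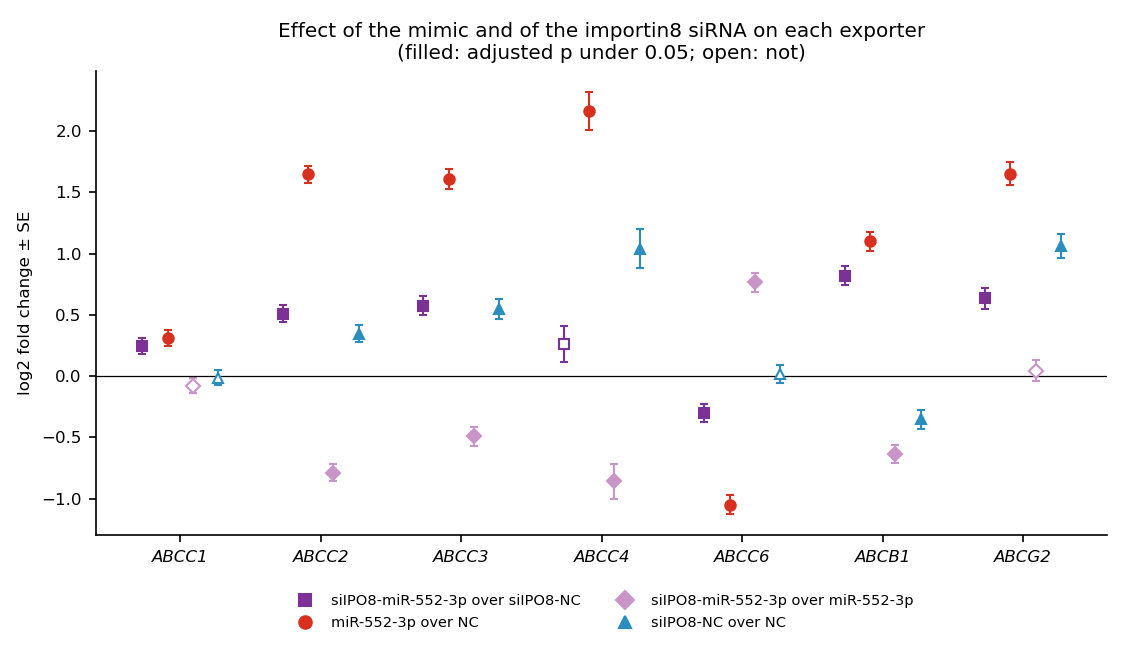
Log2 fold change with its standard error for the 7 tested exporters in 4 comparisons, filled where the adjusted p was under 0.05 and open elsewhere. ABCC2, ABCC3 and ABCC4 lie below 0 for importin8 siRNA with the mimic (-0.79, -0.49 and -0.86) and above 0 for importin8 siRNA with the control mimic (0.35, 0.55 and 1.04).

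ABCC2, ABCC3 and ABCC4 shared one order of group means: miR-552-3p highest, then siIPO8-miR-552-3p, siIPO8-NC and NC. All neighbouring groups in that order differed by the test for ABCC2 and ABCC3, and for ABCC4 siIPO8-miR-552-3p and siIPO8-NC did not. ABCB1 had the order miR-552-3p, siIPO8-miR-552-3p, NC, siIPO8-NC, with every neighbouring pair called. ABCG2 was level in siIPO8-miR-552-3p and miR-552-3p, lower in siIPO8-NC and lowest in NC. ABCC6 was highest in siIPO8-NC and NC, which overlapped, then siIPO8-miR-552-3p, then miR-552-3p. In all, 16 of 21 neighbouring pairs were called. Beyond the comparisons above, these pairs drew on siIPO8-miR-552-3p over NC, where 56.3% of all genes were called, and miR-552-3p over siIPO8-NC, where 50.2% were called.

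Across the 8 libraries, the log2 CPM of ABCC2 and ABCC3 had a Pearson r of 0.975, ABCC3 and ABCC4 of 0.969, and ABCB1 and ABCG2 of 0.598. ABCC6 ran against the others, with an r of -0.95 with ABCC2. These values describe 4 groups of 2 libraries that share scaling and depth. Among 11124 genes with a usual symbol, those with the highest r to ABCC2 were IDS (0.9996), TXNRD1 (0.9976) and TOMM34 (0.9976). For ABCC4 they were HKDC1 (0.9972), DNMT3B (0.9968) and PCID2 (0.9934), and for ABCG2 AATF (0.9966), HSPE1 (0.9964) and CEBPG (0.9956).

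The uptake carriers gave too few counts to be tested. SLCO1B1 had 0 expected counts in both libraries of siIPO8-miR-552-3p, miR-552-3p and NC, and 1 in each library of siIPO8-NC. A count of 0 allows up to 3 counts in a library, or 0.131 to 0.144 CPM. SLCO1B3 had 7.74 and 9.99 expected counts in siIPO8-miR-552-3p and 1 and 6.88 in miR-552-3p, against 5.68 and 3 in siIPO8-NC and 3.42 and 1.76 in NC. SLC10A1 had 8.51 and 2.41 expected counts in siIPO8-miR-552-3p and 3.64 and 3.69 in miR-552-3p, against 6.05 and 6.18 in siIPO8-NC and 6.99 and 6.29 in NC. The groups differed by a few counts at most, and no direction was read from them at this depth. SLCO1B3 also shares 67.4% of its 50-base stretches with AC011604.2, a gene of the GENCODE v29 annotation. Whether the annotation used for counting held that gene is not stated, so a division of counts between them is not known.

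Of the 10 transporters, 8 had an entry among the RefSeq promoters (GRCh38.p14, 35116 promoters of 300 bases), with 14 starts in all. The seed match CACCTGT, found in 4.11% of all promoters, was in none of the 14. The core of the antioxidant response element, TGACNNNGC, the letters bound by NRF2, was found in 13.3% of all promoters. It occurred at ABCC4, on the minus strand of the gene 149 to 141 bases before its start, and at 1 of 5 starts of ABCG2, where it spans bases 1 to 9 after the start. The promoters of ABCC2 (chr10:99782390-99782639, plus strand) and ABCC4 (chr13:95301452-95301701, minus strand) are shown because both genes shared one order of groups while the sequences differ, with a G and C content of 45.6% and 80.4%. Capitals mark the element.

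ABCC2 promoter: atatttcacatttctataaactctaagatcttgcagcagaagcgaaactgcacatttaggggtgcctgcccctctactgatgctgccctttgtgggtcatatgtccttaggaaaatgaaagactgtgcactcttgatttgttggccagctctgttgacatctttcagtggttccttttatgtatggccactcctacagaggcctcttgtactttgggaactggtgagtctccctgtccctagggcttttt

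ABCC4 promoter: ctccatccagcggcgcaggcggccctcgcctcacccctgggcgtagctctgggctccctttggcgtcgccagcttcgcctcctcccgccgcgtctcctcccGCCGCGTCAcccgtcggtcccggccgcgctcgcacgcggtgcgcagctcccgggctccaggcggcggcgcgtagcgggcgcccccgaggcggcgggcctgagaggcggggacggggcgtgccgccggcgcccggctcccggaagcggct

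The counting of ABCC6 limits its values. ABCC6 shares 15% of its 50-base stretches with other annotated genes, 14.1% with the pseudogene ABCC6P1. ABCC6P1 averaged 35.03 CPM in siIPO8-miR-552-3p, 22.6 CPM in miR-552-3p, 55.8 CPM in siIPO8-NC and 57.7 CPM in NC. It fell with the mimic like ABCC6, at log2 values of -0.67 with importin8 siRNA and -1.35 with control siRNA. With the counts of both genes added, the mimic's log2 effect was -0.45 with importin8 siRNA and -1.18 with control siRNA.

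The ratio of expected count to FPKM gives the length by which the counts were divided, which moves with the mix of isoforms assigned. For ABCC6 it was 1004 bases in siIPO8-miR-552-3p, 1071 bases in miR-552-3p, 1022 bases in siIPO8-NC and 1358 bases in NC, beside 5747 bases for the annotated transcript, so its FPKM is high for its counts. For ABCC4 it was 4436 bases in siIPO8-miR-552-3p, 4458 bases in miR-552-3p, 3851 bases in siIPO8-NC and 3035 bases in NC. The ABCC4 libraries of a group differed widely with the mimic, at 4961 and 3911 bases in siIPO8-miR-552-3p and 5002 and 3914 bases in miR-552-3p. They were at 4062 and 3640 bases in siIPO8-NC and 2955 and 3115 bases in NC. For ABCB1 the group means stayed between 4406 and 4423 bases. The ABCC3 length rose from a mean of 4113 bases in NC to 5186 bases with the mimic and control siRNA, and these libraries did not overlap. That of ABCC2 moved the other way, from 6379.5 bases in NC to 5763.8 bases in miR-552-3p. Fold changes in FPKM therefore differed from those in counts: for ABCC4 the mimic's effect with control siRNA was 1.46 on the log2(FPKM + 0.1) scale, and its importin8 siRNA effect with the control mimic was 0.63 (adjusted p = 0.036 by limma). For ABCC6 on that scale, the importin8 siRNA effect with the control mimic was 0.41 (adjusted p = 0.00074 by limma), and the difference between the mimic's effects was 0.42 (adjusted p = 0.0057). ABCC3 averaged 12.7 FPKM in NC and 29.4 FPKM in miR-552-3p. Its log2 effect of the mimic with control siRNA, 1.61 on counts, was 1.21 at its lowest over 16 alternatives, and all 16 kept the call. ABCC2 averaged 68.3 FPKM in NC and 226 FPKM in miR-552-3p.

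**Figure D4:**
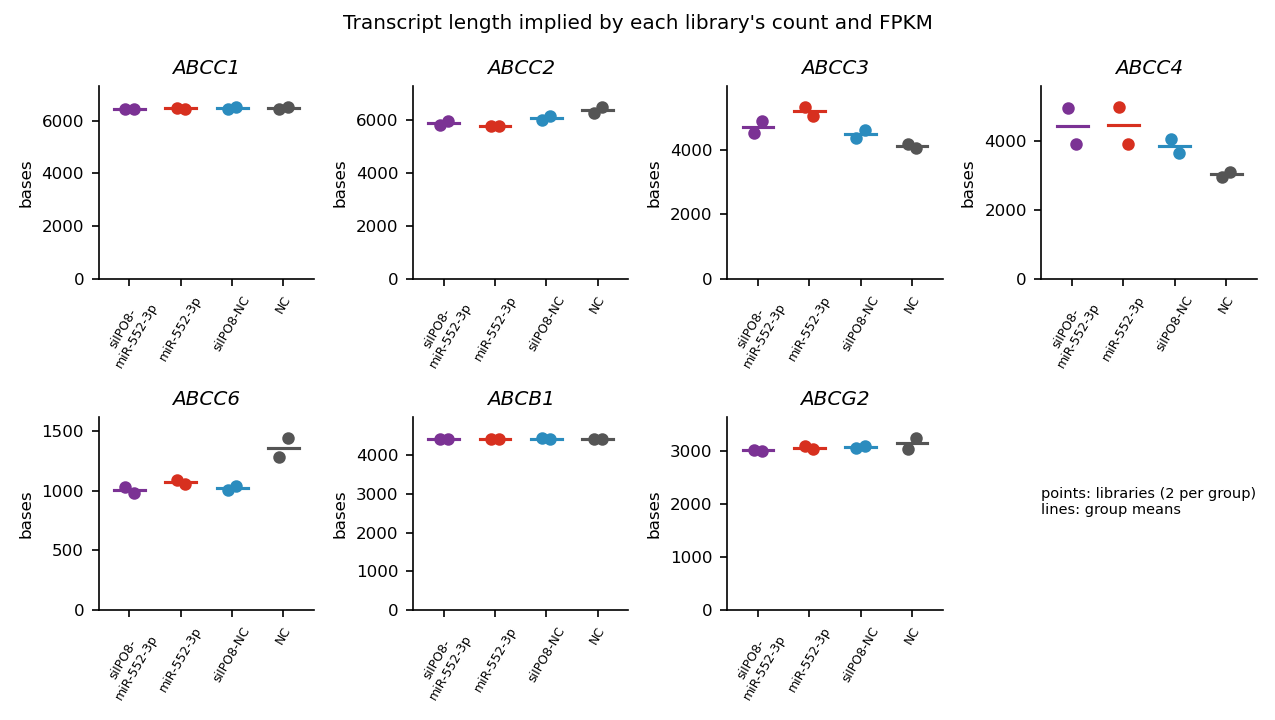
Length in bases implied by expected count and FPKM for the 7 tested exporters, with a point for each library and a line at the group mean. ABCB1 is level at 4406 to 4423 bases over the group means, whereas ABCC4 averages 4458 bases in miR-552-3p against 3035 bases in NC.

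Other genes of transport and its control were read from lists chosen with earlier results of these data known. The shares of all genes called stand beside these counts: 31.7% for the mimic with importin8 siRNA (15.0% higher, 16.7% lower) and 58.4% with control siRNA (28.9% higher, 29.5% lower). Of 9 tested other efflux transporters, the mimic gave 1 higher and 4 lower with importin8 siRNA, and 1 higher and 4 lower with control siRNA. That is 55.6% called in each arm, close to the share of all genes in the control siRNA arm. Their medians were -0.10 and 0.07, importin8 siRNA first. ABCB4, the phospholipid floppase of the canaliculus, fell in both arms, at -0.58 with importin8 siRNA and -1.28 with control siRNA. ABCB11, the bile salt export pump, had 3 counts over both miR-552-3p libraries and 0 in the other groups.

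Of 14 tested other uptake carriers, 5 were lower and 0 higher with the mimic in the importin8 siRNA arm by edgeR's quasi-likelihood test, and 8 were lower and 2 higher in the control siRNA arm. The share called was 35.7% with importin8 siRNA, near the 31.7% of all genes, and 71.4% with control siRNA, beside 58.4%. SLCO2B1, the carrier OATP2B1, fell in both arms, at -1.67 with importin8 siRNA and -1.92 with control siRNA. The medians of these carriers were -0.14 with importin8 siRNA and -0.44 with control siRNA.

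Of 16 transcription regulators, 10 were lower and 3 higher with the mimic under importin8 siRNA, and 9 were lower and 5 higher under control siRNA. All genes had 16.7% lower and 15.0% higher under importin8 siRNA, and 29.5% lower and 28.9% higher under control siRNA. NR1I2 (the xenobiotic receptor PXR, known to induce ABCB1 and ABCC2) was at -0.27 (adjusted p = 0.054) with importin8 siRNA and rose by 0.89 with control siRNA, a difference of -1.17 (SE 0.13, adjusted p = 0.00014). NFE2L2, which encodes NRF2, was at 0.09 (adjusted p = 0.45) with importin8 siRNA and rose by 0.52 with control siRNA. NR1H4 (the bile acid receptor FXR) fell to a log2 value of -0.25 with importin8 siRNA and -1.43 with control siRNA. HNF4A fell at -0.37 with importin8 siRNA and -0.41 with control siRNA. NR1I3 (the receptor CAR) had 2.95 to 47.2 counts per library and passed in neither arm, at -1.46 and -1.18. In the importin8 siRNA arm the call of NR1H4 was lost without siIPO8-miR-552-3p replicate 2 (-0.20) or siIPO8-NC replicate 1 (-0.18) and with DESeq2 (-0.24). In the same arm NR1I3 was called without siIPO8-miR-552-3p replicate 1 (-3.37) and with limma-voom (-1.94). In the control siRNA arm NR1I3 was called without siIPO8-miR-552-3p replicate 1 or 2, or with only the 4 libraries compared, each at -1.18. For NR1I2 the control siRNA arm gave 1.47 on FPKM, and the importin8 siRNA arm was called at -0.37 with totals that left out the gene with the most counts.

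Of 14 tested NRF2 targets, 7 were higher and 3 lower with the mimic under importin8 siRNA, with a median of 0.40, and 9 were higher and 3 lower under control siRNA, with a median of 1.36. Over all genes 15.0% were higher and 16.7% lower under importin8 siRNA, and 28.9% were higher and 29.5% lower under control siRNA. TXNRD1, a thioredoxin reductase, rose by 1.08 with importin8 siRNA and by 2.87 with control siRNA. GCLC, which makes the glutathione precursor, rose by 1.67 and 2.34 in the same order. Among the lower genes, NQO1 and PGD fell in both arms, -0.26 each with importin8 siRNA and -0.36 and -0.41 with control siRNA. AKR1B10 fell most with control siRNA, at -0.86, and was not called with importin8 siRNA, at -0.16. HMOX1 fell by 0.49 with importin8 siRNA and rose by 1.94 with control siRNA. With the mimic present, importin8 siRNA left 11 of the 14 lower and 0 higher by edgeR, beside 16.2% lower and 17.3% higher over all genes. With the control mimic, importin8 siRNA left 5 lower and 4 higher, beside 21.6% lower and 25.4% higher. The median of the targets was -0.70 with the mimic and -0.08 with the control mimic. AKR1C1 was at -1.54 with the mimic and fell most of the targets with the control mimic, at -2.38. Of 12 genes that anchor or deliver canalicular transporters, 4 were higher and 1 lower with the mimic under importin8 siRNA, and 5 were higher and 2 lower under control siRNA. The shares called, 41.7% with importin8 siRNA and 58.3% with control siRNA, stand beside 31.7% and 58.4% of all genes. RDX (radixin, which tethers ABCC2 to actin) rose by 0.71 with importin8 siRNA and by 2.31 with control siRNA.

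Markers of several cell types differed between miR-552-3p and NC, in both directions within each list. The summed level of 6 cholangiocyte markers was 1061 to 1106 CPM in siIPO8-miR-552-3p, 2197 to 2245 CPM in miR-552-3p, 689 to 695 CPM in siIPO8-NC and 896 to 954 CPM in NC. Of the 5 tested, 2 were higher and 1 lower with the mimic under importin8 siRNA, beside 31.7% of all genes called, and 2 were higher and 2 lower under control siRNA, beside 58.4%. With control siRNA the keratin KRT19 rose to 662 CPM in miR-552-3p, against 31.3 CPM in NC, and SPP1 (osteopontin) to 1299 CPM in miR-552-3p, against 369 CPM in NC. In the same comparison SOX9 fell to 174 CPM in miR-552-3p, against 397 CPM in NC, and EPCAM to 83.6 CPM in miR-552-3p, against 126 CPM in NC.

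The summed level of 7 endothelial and blood markers was 1508 to 1514 CPM in siIPO8-miR-552-3p, 990 to 999 CPM in miR-552-3p, 1936 to 1993 CPM in siIPO8-NC and 2090 to 2471 CPM in NC, and no marker was at 0 in any group. Lysozyme (LYZ) held most of it and fell to 847 CPM in miR-552-3p, against 2195 CPM in NC, whereas CD68 rose to 117 CPM in miR-552-3p, against 6.66 CPM in NC. The summed level of 7 fibroblast markers was 9.38 to 10.4 CPM in siIPO8-miR-552-3p, 8.58 to 9.34 CPM in miR-552-3p, 9.17 to 9.96 CPM in siIPO8-NC and 12.9 to 19.8 CPM in NC. PDGFRB fell to 4.49 and 5.51 CPM in miR-552-3p, against 18.2 and 12.4 CPM in NC, and COL1A1 rose to 3.41 CPM in miR-552-3p, against 0.310 CPM in NC. The summed level of 10 hepatocyte markers was 73988 to 77983 CPM in siIPO8-miR-552-3p, 49232 to 50030 CPM in miR-552-3p, 67007 to 69761 CPM in siIPO8-NC and 62862 to 69610 CPM in NC. Of these 10, 3 were lower and 2 higher with the mimic under importin8 siRNA, beside 16.7% and 15.0% of all genes. Under control siRNA 7 were lower and 1 higher, beside 29.5% and 28.9%. FGB was the 1 higher there, at 3.25, and TTR fell most, at -2.32. Importin8 siRNA with the mimic gave 9 higher and 0 lower, beside 17.3% and 16.2%. With the control mimic it gave 6 higher and 3 lower, beside 25.4% and 21.6%. The part of these markers in the transporters' values was not tested.

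**Figure D5:**
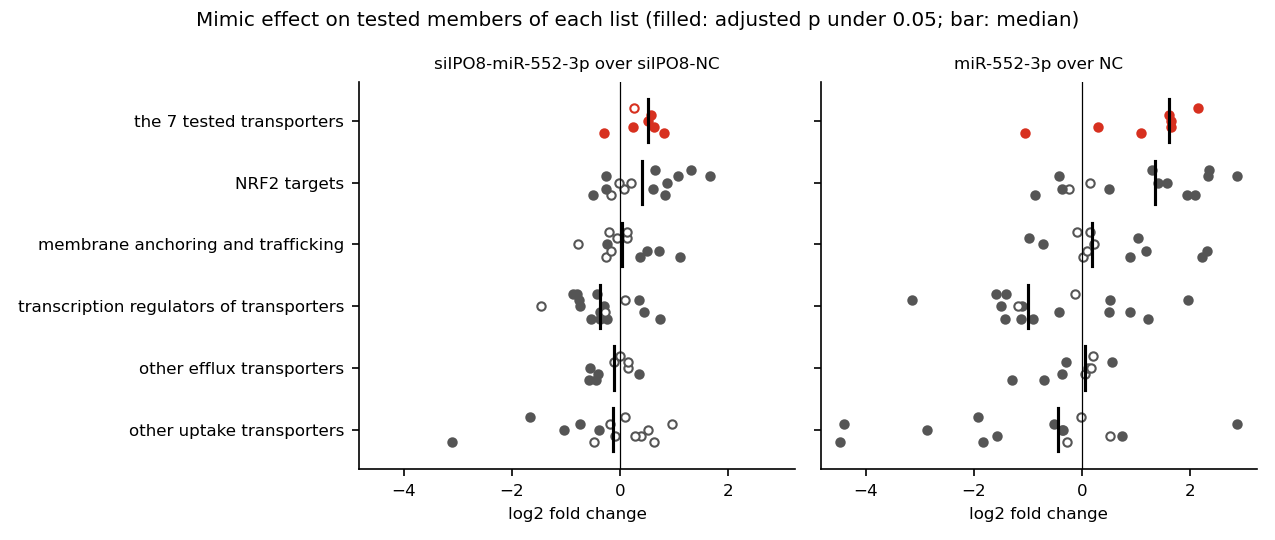
Log2 fold change of each tested gene by list for the mimic with importin8 siRNA and with control siRNA, with the median of each list marked. The 7 tested transporters have a median of 0.51 with importin8 siRNA and 1.61 with control siRNA, and the NRF2 targets 0.40 and 1.36.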

How the data were processed

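Per the file headers, the table deposited by the authors gives an expected count and an FPKM for each gene and library. The submitters' processing notes name HISAT2 2.0.4, Bowtie2 2.2.5, RSEM 1.2.8 and GRCh38.p12, with no role stated. Libraries were put in groups by sample title. Column names are abbreviated, and NC51, NC52, SI51 and SI52 were read as the mimic libraries.

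Expected counts were rounded to whole numbers and filtered with filterByExpr, and 7 of the 10 transporters passed. They were scaled by TMM (factors 0.961 to 1.06) and tested with edgeR 4.0.16 in R 4.3.3 (quasi-likelihood, 1 mean per group, no replicate block). Benjamini-Hochberg adjustment ran over all 17715 genes tested, and a gene was called at an adjusted p under 0.05. Standard errors are the absolute log2 fold change over the root of F. CPM uses the same scaling, and a count of 0 was read as at most 3 counts, for counting error only. FPKM (limma 3.58.1, log2 of FPKM plus 0.1) and DESeq2 1.42.0 served as alternatives. The scripts were tested on simulated data.

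The members and gene lists were chosen with earlier results of these data known. Named were all 10 transporters, IPO8, a set of regulators (1 of which is not reported here), and up to 3 genes per list and comparison with the largest change among those called with a mean of at least 100 counts and separate groups. Other genes of the lists are given as counts, and ABCB11, EPCAM, COL1A1, NQO1 and PGD were named after their values were seen. ALB and KRT7 are named to check the cell type.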

Additional observations from a re-analysis of the deposited data

Results flagged for a closer look

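For 5 transporters, the mimic's effect differed between the importin8 siRNA arm and the control siRNA arm by the test of the difference itself (edgeR's quasi-likelihood test). The log2 difference, importin8 siRNA minus control siRNA, was -1.90 for ABCC4, -1.14 for ABCC2, -1.04 for ABCC3 and -1.02 for ABCG2, and 0.75 for ABCC6. Of all genes tested, 31.3% differed in the same test.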

How the results depend on the processing

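Over 35 results of the 7 tested transporters and 558 alternatives, 540 kept their direction and their side of the threshold. Some of these alternatives left out a library of a group not compared. Such a fit can change the estimated spread but hardly the fold change. The genes called for the mimic with importin8 siRNA numbered 3582 to 6112 when 1 library was left out, against 5607, with 3582 without siIPO8-miR-552-3p replicate 1 and 3590 without siIPO8-NC replicate 2. With totals that left out the gene with the most counts, 34.0% of the genes called there were higher, against 47.2%. Directions turned only for values that had not passed the test, as follows, on the log2 scale. ABCC4 for the mimic with importin8 siRNA was -0.0012 on FPKM. For importin8 siRNA with the control mimic, leaving out 1 library gave ABCC1 values of -0.058 to 0.032 and ABCC6 values of -0.065 to 0.108. In the same comparison ABCC6 was -0.051 with totals without the most abundant gene and -0.011 with ABCC6P1 added. For importin8 siRNA with the mimic, leaving out 1 library gave ABCG2 values of -0.013 to 0.103 and NR1I3 values of -2.42 to 0.286. In the difference it gave NR1I3 values of -2.19 to 0.519 and HNF4A values of -0.018 to 0.113. NFE2L2 for the mimic with importin8 siRNA was -0.0056 with totals without the most abundant gene. The causes were not tested.

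Same-numbered libraries did not deviate together (r -0.0034 to 0.087), so the numbers were not taken as pairs. With the replicate block, 5847 genes were called for the mimic with importin8 siRNA and 10424 for the mimic with control siRNA, and 6 transporters for the difference, against 5. The FPKM fit and the sum of ABCC6 with ABCC6P1 were chosen after seeing the data. With 2 libraries per group, comparisons that share a group are not independent, and 1 left-out library leaves a lone sample assumed to vary like the others.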
